A study of Homo sapiens with 10 samples.

Results

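NB4 cells, a human line grown from an acute promyelocytic leukemia, are the only cells of this study, and their chromatin-modifying enzymes other than those of the LSD1 complex are described here. These enzymes were taken as the protein-coding rows whose symbol is KDM, KMT, SETD, HDAC, SIRT, KAT, EZH, PRMT or TET followed by a digit, together with SETDB1, SETDB2, DNMT1, DNMT3A, DNMT3B, EP300 and CREBBP. KDM1A, which encodes LSD1, and its partners HDAC1 and HDAC2 were left out by the same rule. This gave 79 genes of the 19975 protein-coding rows and of the 60603 rows in all. The only one on chromosome Y, KDM5D, is counted but its level is not given, so that levels and counts below run over the other 78.

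The RNA came from 2 experiments. In the knockdown experiment, cells were infected with pLKO.1 puro lentivirus, either empty (EV) or with the hairpin shA1 or shB2 against GSE1, and were harvested 48 h after transduction. In the inhibitor experiment, cells received DMSO or 2 µM of the LSD1 inhibitor MC2580, which the sample titles spell MC280, for 24 h. Each of the 5 groups has 2 libraries, and all of them come from the same cell line. The libraries were made from total RNA with a TruSeq v2 kit, which selects polyadenylated RNA and does not mark the strand.

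The value used from the deposited tables is the base mean, of which there is 1 per gene and experiment. It is the average, over all libraries of an experiment, of the read counts after each library was scaled for its depth. The columns headed by either hairpin hold the same base mean in all 60603 rows, and it was taken as the DESeq2 average over every library of the table. The knockdown value then pools the 6 libraries of EV, shA1 and shB2, and the inhibitor value pools the 4 libraries of DMSO and MC2580, so that controls and treated cells are both in it. The tables also hold the authors' own comparisons of treated with control cells, which were left out of this account by choice, so that no such comparison is given. No value per library was available to this work, hence no error and no test of its own, and the depth of a single library is unknown. The base means of all rows sum to 40543130 in the knockdown experiment and to 41201112 in the inhibitor experiment. To compare genes with each other, the base mean was divided by the length of the canonical transcript in kb and scaled so that all protein-coding genes sum to 1000000. This length-scaled value is termed the level throughout.

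Chromatin enzymes add or remove small chemical groups on histone tails and on DNA. Acetyltransferases such as EP300 and KAT2A mark open chromatin and are opposed by the histone deacetylases and sirtuins. Methyltransferases of the KMT2, EZH and SETD families place marks that accompany active or silent genes, and the KDM demethylases take them off again. The PRMT enzymes methylate arginines, the DNMT enzymes methylate cytosines in CpG, and the TET enzymes oxidise the methylated cytosine. In acute myeloid leukemia, genes of these classes such as TET2, DNMT3A, EZH2 and KMT2A are known targets of mutation or translocation.

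The labelled cell type was compared with its markers. MPO, the myeloperoxidase of promyelocyte granules, had a level of 8289 in the knockdown experiment and 12133 in the inhibitor experiment. Base means no lower than 50 were found for 6 of the 7 promyelocyte markers in both experiments, the exception being ELANE, with base means of 1.10 and 3.87. Among markers of other cells, 0 of 4 erythroid and 0 of 3 fibroblast genes reached that base mean. In the lymphocyte list 2 of 5 did so, CD3D at levels of 65.0 and 58.6 and CD79A at 5.77 and 4.99, whereas MS4A1 had base means of 0.217 and 0. In the epithelial list 3 of 4 did so, KRT18 at levels of 33.7 and 22.4, EPCAM and KRT8, whereas CDH1 had base means of 0 and 0.859. The summed level of the epithelial list was 52.9 in the knockdown experiment and 38.5 in the inhibitor experiment, and that of the lymphocyte list was 71.6 and 64.5. Their part in the levels below was not tested.

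The sequences just upstream of the genes are shown first for the enzymes at the extremes of the results: PRMT1 and DNMT1, which had the highest levels, PRMT8, a close relative of PRMT1 with almost no reads, and the pairs KAT2A and KAT2B, and HDAC7 and HDAC9, whose levels lay far apart. Each is the 250 bases before the RefSeq start site on GRCh38.p14, which here coincides with the start of the canonical transcript, written 5′ to 3′ on the strand of the gene, with every CG dinucleotide in capitals. The windows lie at chr19:10194954-10195203 on the minus strand for DNMT1, at chr19:49677021-49677270 on the plus strand for PRMT1 and at chr12:3490953-3491202 on the plus strand for PRMT8. Those of the pairs lie at chr17:42121368-42121617 on the minus strand for KAT2A, at chr3:20040196-20040445 on the plus strand for KAT2B, at chr12:47819904-47820153 on the minus strand for HDAC7 and at chr7:18495499-18495748 on the plus strand for HDAC9.
DNMT1: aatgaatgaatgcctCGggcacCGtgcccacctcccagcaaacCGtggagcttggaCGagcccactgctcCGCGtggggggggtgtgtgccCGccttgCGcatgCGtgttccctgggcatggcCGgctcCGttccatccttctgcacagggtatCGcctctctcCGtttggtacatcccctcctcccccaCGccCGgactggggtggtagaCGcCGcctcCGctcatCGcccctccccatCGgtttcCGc
PRMT1: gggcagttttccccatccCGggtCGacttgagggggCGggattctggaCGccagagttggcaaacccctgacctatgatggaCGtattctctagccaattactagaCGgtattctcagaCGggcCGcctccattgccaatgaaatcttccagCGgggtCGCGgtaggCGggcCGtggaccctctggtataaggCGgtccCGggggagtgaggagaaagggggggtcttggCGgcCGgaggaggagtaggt
PRMT8: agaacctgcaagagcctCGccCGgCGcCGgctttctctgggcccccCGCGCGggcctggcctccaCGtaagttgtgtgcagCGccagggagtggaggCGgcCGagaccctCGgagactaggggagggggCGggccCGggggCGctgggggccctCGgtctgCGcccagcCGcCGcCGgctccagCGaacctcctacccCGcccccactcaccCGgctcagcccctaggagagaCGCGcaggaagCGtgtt
KAT2A: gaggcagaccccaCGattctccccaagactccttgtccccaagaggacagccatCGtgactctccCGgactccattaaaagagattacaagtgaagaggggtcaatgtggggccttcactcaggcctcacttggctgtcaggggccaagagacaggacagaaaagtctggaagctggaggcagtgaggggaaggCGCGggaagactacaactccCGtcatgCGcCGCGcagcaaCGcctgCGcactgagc
KAT2B: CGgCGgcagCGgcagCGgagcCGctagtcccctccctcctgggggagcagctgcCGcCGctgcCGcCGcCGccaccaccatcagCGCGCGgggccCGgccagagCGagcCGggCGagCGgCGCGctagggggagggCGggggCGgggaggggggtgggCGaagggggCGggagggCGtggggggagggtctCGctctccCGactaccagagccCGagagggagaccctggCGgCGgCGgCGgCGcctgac
HDAC7: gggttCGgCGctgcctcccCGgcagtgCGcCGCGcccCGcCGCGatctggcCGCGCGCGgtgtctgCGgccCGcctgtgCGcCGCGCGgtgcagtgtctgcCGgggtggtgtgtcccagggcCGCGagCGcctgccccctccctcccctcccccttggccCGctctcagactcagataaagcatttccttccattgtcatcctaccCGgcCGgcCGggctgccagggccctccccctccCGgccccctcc
HDAC9: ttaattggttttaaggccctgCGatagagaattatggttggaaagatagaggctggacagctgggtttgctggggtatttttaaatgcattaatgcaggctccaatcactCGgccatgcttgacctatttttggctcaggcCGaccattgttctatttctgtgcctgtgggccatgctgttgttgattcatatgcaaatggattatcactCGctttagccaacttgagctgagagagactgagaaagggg

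The number of CG dinucleotides in these windows, picked after their values were seen, is given beside the level of the gene. A relation between the 2 over all enzymes was not tested. The windows of DNMT1, PRMT1, PRMT8, HDAC7 and HDAC9 lie within the annotated span of the gene. Which start sites NB4 cells use was not tested. PRMT1 has 17 of them and PRMT8 has 26, which correspond to a CpG observed over expected of 0.757 and 0.752, a ratio that corrects for the number of C and G. The windows of the PRMT pair are therefore alike in this measure although the level of PRMT1 was 725 and that of PRMT8 was 0.0106 in the knockdown experiment. In the KAT2 pair the gene with the higher level, KAT2A, has 11 CG and a ratio of 0.509, and KAT2B has 33 and a ratio of 0.835. The class IIa deacetylases go the other way, with 28 CG and a ratio of 0.815 at HDAC7, which had the higher level, and 4 CG and a ratio of 0.327 at HDAC9.

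A window whose start lay within 1000 bases of the canonical start was found for 70 of the 78 enzymes. A CpG ratio of at least 0.6 was found in 66 of them, or 94.3%, beside 67.8% of the 14496 windows of all protein-coding genes. The median ratio was 0.885 for the enzymes, 0.765 for all windows and 0.849 for the 8669 windows of genes whose base mean was no lower than 50 in the knockdown experiment. Letters of core promoter motifs were searched on both strands. TATAAA was present in 1 of the 70 windows, that of SIRT4, or 1.43%, beside 8.77% of all windows. GGGCGG, the GC box, was present in 46 of them or 65.7%, beside 60.5% of all windows, and CCAAT in 21 or 30.0%, beside 34.9%. CCGGAAG, a core of ETS factor sites, was present in 12 or 17.1%, beside 12.6%. Matches to different motifs may share letters at their ends, and a match describes letters only. The shares are set beside the windows of all protein-coding genes, silent ones included. Shares over the 8669 windows alone are not given.

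**Figure D1:**
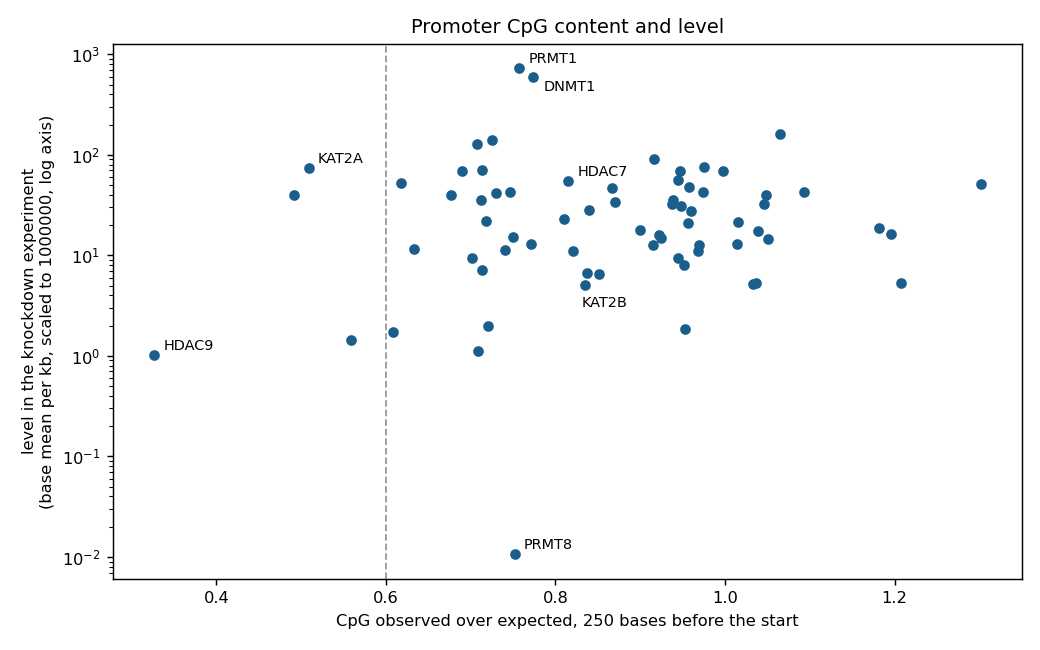
CpG observed over expected in the 250 bases before the start (horizontal) against the level in the knockdown experiment (vertical, log axis) for 70 chromatin enzymes, 1 point a gene; the dashed line marks a ratio of 0.6. PRMT1 and PRMT8 sit at ratios of 0.757 and 0.752 with levels of 725 and 0.0106.

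Nearly all of these enzymes had reads in NB4 cells. In the knockdown experiment 74 of 78 had a base mean no lower than 50, or 94.9%, beside 55.9% of the 19975 protein-coding rows. In the inhibitor experiment the same base mean was reached by 73 of 78, or 93.6%, beside 55.4% of protein-coding rows. A base mean of at least 1000 was found for 55 and 53 of them, or 70.5% and 67.9%, beside 32.7% and 31.5% of protein-coding rows. This count is not corrected for transcript length. The enzymes stood at a median percentile of 72.5 among all protein-coding levels in the knockdown experiment and of 72.2 in the inhibitor experiment, with a median level of 21.7 and 17.2. Most were thus above the middle of all protein-coding genes, silent ones included. A level of 1 was reached by 55.5% of those genes in the knockdown experiment and by 54.4% in the inhibitor experiment. The place of the enzymes among genes with reads alone is not given. Only 6 of 78 lay above the 90th percentile in each experiment.

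The summed level was concentrated in a few genes. PRMT1 and DNMT1 together made up 34.9% of the summed level of the enzymes in the knockdown experiment and 37.9% in the inhibitor experiment. The 10 highest made up 56.5% and 59.4%, while the lower 39 made up 10.0% and 8.94%. By role, arginine methyltransferases took the largest share of the summed level, with 26.99% and 33.5%, followed by DNA methyltransferases with 18.3% and 15.3% and lysine demethylases with 13.1% and 11.0%. The TET enzymes took the smallest, with 0.925% and 0.587%. Shares depend on the division by length: without it, arginine methyltransferases held 10.5% of the summed base mean in the knockdown experiment and the KMT2 and SETD1 families, whose transcripts are long, held 15.9% in place of 6.16%.

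**Figure D2:**
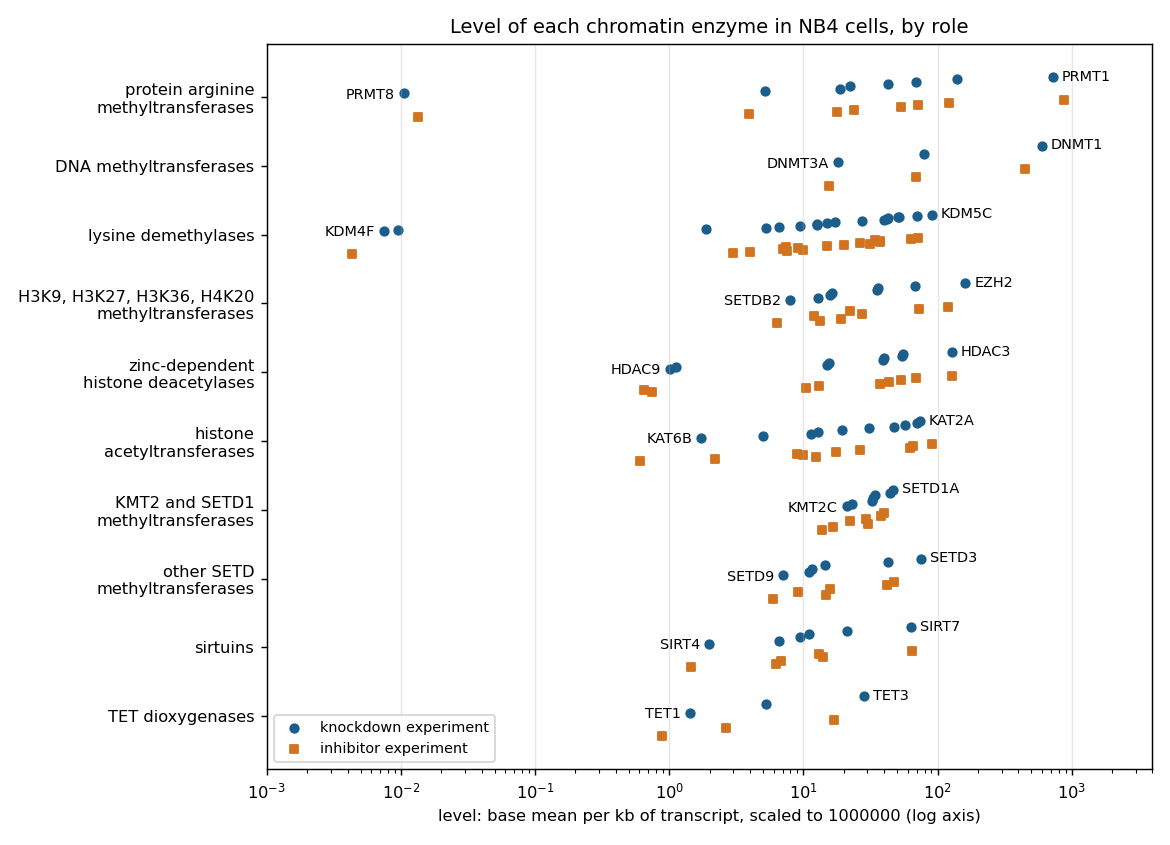
Level of each of 78 chromatin enzymes (horizontal, base mean per kb of transcript scaled to 1000000, log axis) by role (vertical); circles are the knockdown experiment and squares the inhibitor experiment, each a value pooled over libraries, and the highest and lowest gene of each role are named at the circles. PRMT1 and DNMT1 lie far to the right, PRMT8 and KDM4F far to the left, and KDM4E, listed at 0 in the inhibitor experiment, has no square.

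**Figure D3:**
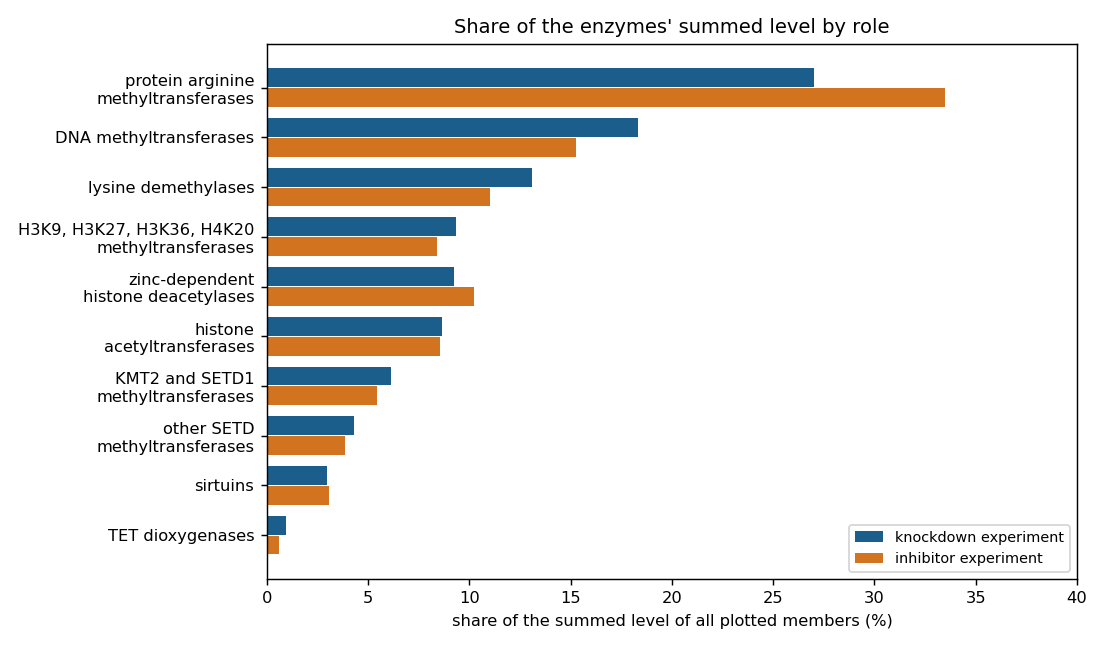
Share of the summed level of 78 chromatin enzymes held by each role (horizontal, %), for the knockdown and the inhibitor experiment. Arginine methyltransferases hold 26.99% and 33.5%, and TET dioxygenases 0.925% and 0.587%.

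Arginine methyltransferases were led by PRMT1, the main enzyme of asymmetric arginine dimethylation. It lies on chromosome 19 from 49675786 to 49689029 on the plus strand, its base mean was 18316 in the knockdown experiment and 24453 in the inhibitor experiment, and its levels of 725 and 871 made it the highest of all 78 enzymes in both. PRMT5, which forms symmetric dimethylarginine, came next at levels of 141 and 122. The middle of the family was held by PRMT2 at 69.2 and 71.7, PRMT7 at 42.8 and 53.5, PRMT6 at 22.2 and 24.0 and PRMT3, which modifies a ribosomal protein, at 18.8 and 17.7. PRMT9 was low at levels of 5.16 and 3.91. PRMT8, known as a brain enzyme anchored to the membrane, had base means of 0.483 and 0.685, which is at the limit of what the data can show, and no fold against PRMT1 is given.

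DNA methylation enzymes were present on the writing side more than on the oxidising side. DNMT1, which copies methylation after replication, lies on chromosome 19 from 10133342 to 10231286 on the minus strand and had the largest base mean of the 78, with 59864 and 49695, or 19.1% and 17.3% of their summed base mean. Its levels were 597 and 446, second to PRMT1 in both experiments. DNMT3B, an enzyme of de novo methylation typical of early embryonic cells, had levels of 79.9 and 69.3, and DNMT3A, the other de novo enzyme, had 18.0 and 15.6. The level of DNMT3B was 4.43 times that of DNMT3A in the knockdown experiment and 4.45 times in the inhibitor experiment. In the knockdown experiment it was 1.78 times with the median length of protein-coding transcripts in place of the canonical one, and 2.18 times with the coding length. Of the dioxygenases, TET3 had levels of 28.4 and 16.9, TET2 5.26 and 2.65 and TET1 1.43 and 0.883. TET3 held 80.9% and 82.7% of the level of its family, and the order of the 3 genes was the same in both experiments.

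Histone acetyltransferases spanned a wide range. KAT2A, the catalytic subunit of SAGA-type complexes, was the highest, with levels of 73.4 and 91.6, whereas its paralog KAT2B had 5.02 and 2.18. KAT2A thus exceeded KAT2B 14.6 times in the knockdown experiment and 42.0 times in the inhibitor experiment. Of the MYST enzymes, KAT5, the catalytic subunit of the TIP60 complex, had levels of 69.8 and 65.5, and KAT8, which acetylates lysine 16 of histone H4, had 57.4 and 62.4. KAT6A, a fusion partner in acute myeloid leukemia, had 19.5 and 8.90, KAT7 had 11.3 and 12.4, and KAT6B had 1.73 and 0.610. The level of KAT6A was 11.3 and 14.6 times that of KAT6B, and between 7.18 and 16.7 times in the knockdown experiment over the 4 lengths tried. EP300 and CREBBP, a pair of coactivators of very similar structure, differed less, with levels of 47.3 and 26.6 for EP300 and of 30.7 and 17.6 for CREBBP, a ratio of 1.54 and 1.51. KAT14, a subunit of the ATAC complex, had levels of 12.9 and 9.88.

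Among zinc-dependent deacetylases HDAC3, the catalytic subunit of the NCOR complexes, was the highest. It lies on chromosome 5, and its levels were 128 in both experiments. HDAC10 had levels of 55.6 and 69.0, HDAC7 54.4 and 53.0, HDAC6, the cytoplasmic tubulin deacetylase, 40.2 and 43.2, and HDAC8 39.4 and 37.1. The class IIa enzymes, which bind the MEF2 factors, were spread widely, with HDAC5 at 15.7 and 13.1, HDAC4 at 14.9 and 10.4 and HDAC9 at 1.02 and 0.745. The level of HDAC7 was 53.5 times that of HDAC9 in the knockdown experiment and 71.2 times in the inhibitor experiment. Over the 4 lengths tried this ratio lay between 24.6 and 126 in the knockdown experiment. HDAC11, the only class IV enzyme, was low, with levels of 1.13 and 0.648 and base means of 60.4 and 38.6. For reference, the genes left out by the rule stood higher than most: HDAC1 at levels of 265 and 199.7, KDM1A at 130 and 96.4 and HDAC2 at 56.8 and 43.7. HDAC1 and HDAC2 had similar base means, 10686 and 10515 in the knockdown experiment and 8942 and 8989 in the inhibitor experiment. Their difference in level comes from the division by transcript lengths of 2.12 and 9.74 kb.

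The NAD-dependent sirtuins analysed were 6, and 1 of them held most of their level. SIRT7, a nucleolar enzyme, had levels of 62.9 and 65.0, or 55.6% and 61.0% of the summed level of these 6. SIRT1, the nuclear founding member in mammals, had 21.2 and 13.1. The mitochondrial SIRT3 had levels of 11.0 and 14.0, the mainly cytoplasmic SIRT2 9.37 and 6.82 and the mitochondrial desuccinylase SIRT5 6.63 and 6.30. SIRT4 was the lowest at 1.98 and 1.44, with base means of 45.9 and 37.1, and SIRT7 exceeded it 31.7 and 45.1 times, or 8.96 times in the knockdown experiment with the exon union as length.

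With the canonical lengths, the methyltransferases of histone H3 lysine 4 had the most even levels. The 7 genes of the KMT2 and SETD1 families lay between 21.0 and 46.3 in the knockdown experiment and between 13.7 and 39.6 in the inhibitor experiment. SETD1A and SETD1B, catalytic subunits of the COMPASS complexes, had levels of 46.3 and 43.98 in the knockdown experiment and of 39.6 and 37.9 in the inhibitor experiment. KMT2D and KMT2C, which act at enhancers, had levels of 34.0 and 21.0 in the knockdown experiment and of 29.2 and 13.7 in the inhibitor experiment. KMT2B and KMT2A, the latter being the MLL gene of leukemia translocations, had 32.6 and 23.0, and then 30.2 and 16.6. KMT2E, a family member without known catalytic activity, had 32.8 and 22.3. In base mean, KMT2D reached 13328 and 12749 with a transcript of 20.6 kb, the longest of the 78. Over the 4 lengths tried, its level was between 1.62 and 5.32 times that of KMT2C in the knockdown experiment.

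Among methyltransferases of H3K9, H3K27, H3K36 and H4K20, EZH2 stood out. EZH2, the catalytic subunit of Polycomb repressive complex PRC2 in dividing cells, lies on chromosome 7 and had levels of 161 and 119, and its paralog EZH1 had 15.9 and 19.0. EZH2 exceeded EZH1 10.2 times in the knockdown experiment and 6.28 times in the inhibitor experiment. With the other lengths, the ratio in the knockdown experiment was 3.78 for the exon union, 5.48 for the median of transcripts and 5.80 for the coding length. KMT5A, which sets H4K20 monomethylation, had levels of 68.4 and 72.9, while KMT5B and KMT5C, which extend this mark, had 16.3 and 12.8 in the knockdown experiment and 11.9 and 13.3 in the inhibitor experiment. The order of the last pair therefore changed between experiments. SETD2, which places trimethylation on H3K36, had levels of 35.9 and 22.4. SETDB1, which silences repeats through H3K9, had 35.4 and 27.4, and SETDB2 had 7.95 and 6.40, a ratio of 4.45 in the knockdown experiment that lay between 1.74 and 9.53 over the 4 lengths.

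The other SETD proteins, several of which act on proteins other than histones, were led by SETD3, the actin histidine methyltransferase, with levels of 75.8 and 47.6. SETD5 had 43.1 and 41.8. The remaining genes of this list lay lower, SETD4 at 14.4 and 15.7, SETD7 at 11.5 and 9.17, SETD6 at 11.0 and 14.6 and SETD9 at 7.11 and 5.92. SETD3 held 46.5% and 35.3% of the level of this list.

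Lysine demethylases were the most numerous role, with 18 genes whose level is given, and none of them held a large part. KDM5C, an X-linked H3K4 demethylase, was the highest at levels of 91.0 and 71.1, or 18.3% and 18.5% of the role. Its relatives KDM5B and KDM5A had 42.5 and 15.1 in the knockdown experiment and 37.3 and 7.42 in the inhibitor experiment. KDM2B and KDM2A, which bind unmethylated CpG through a zinc finger, had levels of 70.4 and 51.1, and then 63.1 and 37.2. The H3K9 demethylases KDM3B and KDM3A had levels of 52.0 and 39.97 in the knockdown experiment and of 34.3 and 31.2 in the inhibitor experiment. KDM6A, the UTX gene, and KDM6B, both H3K27 demethylases, had 12.6 and 9.47 and then 7.02 and 9.94, so that their order turned over between experiments.

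The KDM4 family fell into expressed and silent genes. KDM4A, an H3K9 and H3K36 demethylase on chromosome 1 from 43650149 to 43705518, had levels of 42.0 and 26.4, KDM4C 27.5 and 20.2 and KDM4B 17.3 and 14.9. KDM4D, which lies beside KDM4E and KDM4F on chromosome 11, had levels of 1.87 and 2.99 and base means of 105 and 187. The last 2 were almost without reads, KDM4E with base means of 0.424 and 0 and KDM4F with 0.376 and 0.240. Because these 3 genes are close copies of each other, how RSEM divided shared reads between them is uncertain. The other demethylases, KDM1B, the paralog of LSD1, KDM7A and KDM8, had levels of 12.7, 5.27 and 6.55 in the knockdown experiment.

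**Figure D4:**
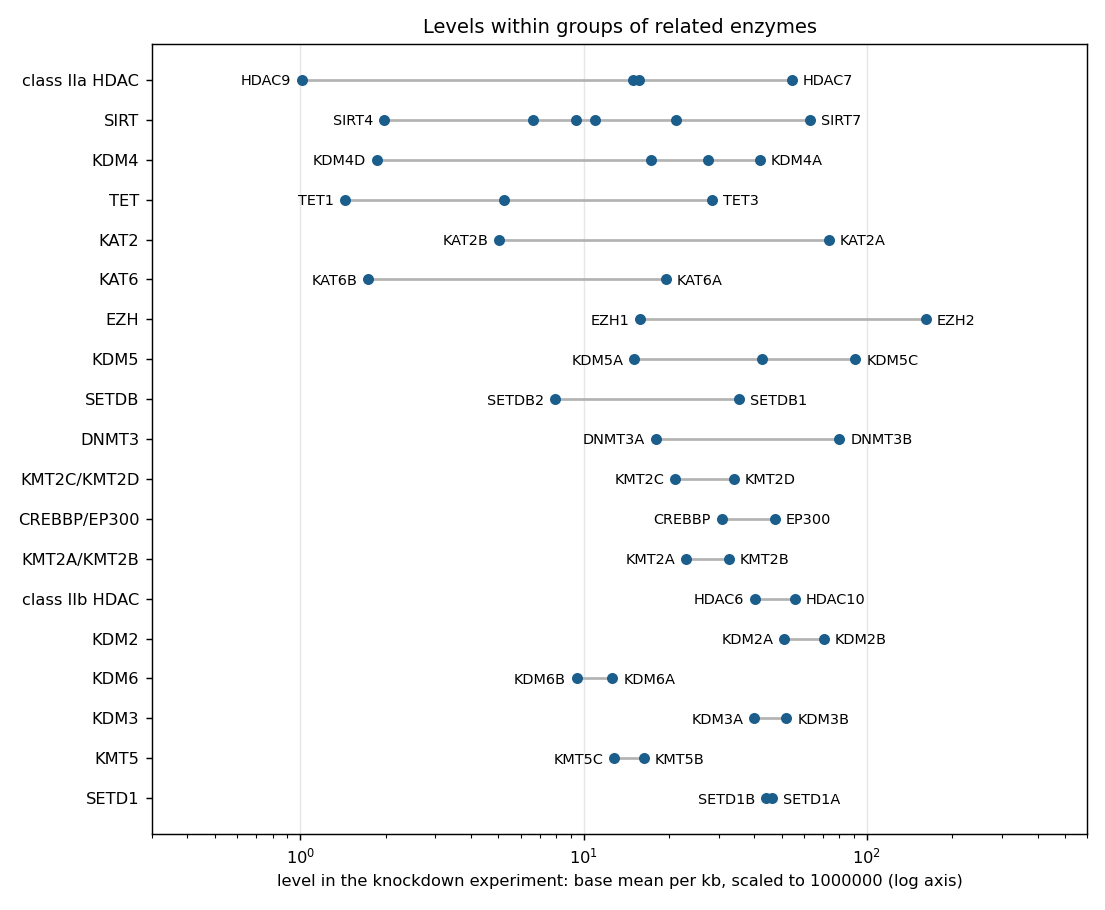
Levels in the knockdown experiment (horizontal, base mean per kb scaled to 1000000, log axis) of related enzymes, 1 line a group and 1 point a gene, with the highest and lowest gene named; KDM4E, KDM4F and the pair of PRMT1 and PRMT8 are left out for base means under 10. With the canonical lengths used here, HDAC7 over HDAC9 is the widest ratio, 53.5, and SETD1A over SETD1B the narrowest, 1.05.

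Of the 19 groups of relatives drawn, 8 had a ratio of at least 6.03 between their highest and lowest gene in the knockdown experiment: the class IIa deacetylases, sirtuins, KDM4, TET, KAT2, KAT6, EZH and KDM5. In the others the ratio was at most 4.45 with canonical lengths. Over the 4 lengths tried, the ratio stayed at 7.18 or above in 6 groups, namely the class IIa deacetylases, sirtuins, KDM4, TET, KAT2 and KAT6, while EZH fell to 3.78, KDM5 turned over and KMT2D over KMT2C reached 5.32. The highest and lowest gene changed order with the length used for division, or between the experiments, in 6 groups. These were EP300 and CREBBP, SETD1, KMT5, KDM2, KDM5 and KDM6. For larger groups, the places of the genes in between with the other lengths are not given.

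Subunits that work with some of these enzymes had reads as well. All 23 genes of a chosen list of complex partners had a base mean no lower than 50 in each experiment. Of all protein-coding rows, 55.9% did so in the knockdown experiment and 55.4% in the inhibitor experiment. The median levels of the list were 54.8 and 43.5. RBBP7, a histone-binding subunit shared by PRC2 and deacetylase complexes, was the highest at levels of 242 and 194, and EPC1, a subunit of the TIP60 complex, the lowest at 10.6 and 6.09. EED and SUZ12, which PRC2 needs for activity, had levels of 54.8 and 62.1 in the knockdown experiment, below the 161 of EZH2. WDR77, the obligate partner of PRMT5, had levels of 62.1 and 51.4, also below those of PRMT5. WDR5 and DPY30, core subunits shared by the KMT2 and SETD1 complexes, had levels of 92.4 and 108 in the knockdown experiment, above each of the 7 genes of those families. These comparisons of partners with enzymes rest on the canonical lengths only.

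As the libraries do not mark the strand, reads in stretches that a gene shares with an opposite-strand neighbour may have been counted for either. The span of 49 of the 78 enzymes overlaps an annotated gene on the other strand, and for 20 of them such a neighbour had a base mean no lower than 50. For 15 it was at least 10% of the enzyme's own base mean. No such counts over all protein-coding genes are given, so these are not set beside a share. The spans include introns, so an overlap need not hold exons of both genes. The largest was CNOT1 beside SETD6, with base means of 15385 and 1310 in the knockdown experiment, followed by RIC8A beside SIRT3 with 4735 and 602, and MIER3 beside SETD9 with 1343 and 189. How many reads of SETD6, SIRT3 and SETD9 come from these neighbours was not tested. An antisense transcript named after its enzyme, KDM4A-AS1, had base means of 73.0 and 135, or 2.04% of KDM4A in the knockdown experiment.

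The order of the enzymes was nearly the same in both experiments. Spearman's rho between their levels was 0.973 over 78 genes, beside 0.979 over 10916 protein-coding genes whose base mean was no lower than 50 in each, as a description across genes of pooled values. Of the 10 highest in each experiment, 8 were shared. A move of at most 5 ranks was seen for 56 of 78, and the largest move was 16 ranks.

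Between the experiments, the base means were set side by side after scaling them to the same sum over protein-coding genes. The tables were normalized separately, and transduction, time and solvent differ between the experiments and cannot be told apart from each other or from the hairpins and the inhibitor, whose libraries are in the pooled values. Over the 73 enzymes whose base mean was no lower than 50 in each, the median log2 ratio of inhibitor over knockdown experiment was -0.12, with 27 above 0, or 37.0%. Over all 10916 such protein-coding genes the median was -0.09, with 41.7% above 0. The standard deviation was 0.41 over the enzymes and 0.47 over all, and a ratio larger than 1 in size was found for 3 enzymes or 4.11%, beside 4.15% of all genes. Of the promyelocyte markers, 5 of 6 had a log2 ratio above 0, with a median of 0.73, and their part in the ratios of the enzymes was not tested.

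The ratio moved with transcript length over the whole transcriptome. The median log2 ratio of protein-coding genes fell from 0.24 in the shortest of 10 equal bins of transcript length to -0.36 in the longest, and it rose from -0.27 to 0.29 from the lowest to the highest of 10 bins of transcript GC. Spearman's rho of the log2 ratio with length was -0.43 over all genes and -0.52 over the enzymes, and with GC content it was 0.38 and 0.47, across genes that share the same libraries. Among enzymes with transcripts under 3 kb, 16 of 21 had a log2 ratio above 0, beside 59.8% of all such genes, and among those over 8 kb it was 2 of 20, beside 18.4%. The median transcript of the enzymes was 4.55 kb, beside 3.31 kb for protein-coding genes whose base mean was no lower than 50, so that the set holds many long transcripts. The part of length and GC in single ratios was not tested beyond these values.

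**Figure D5:**
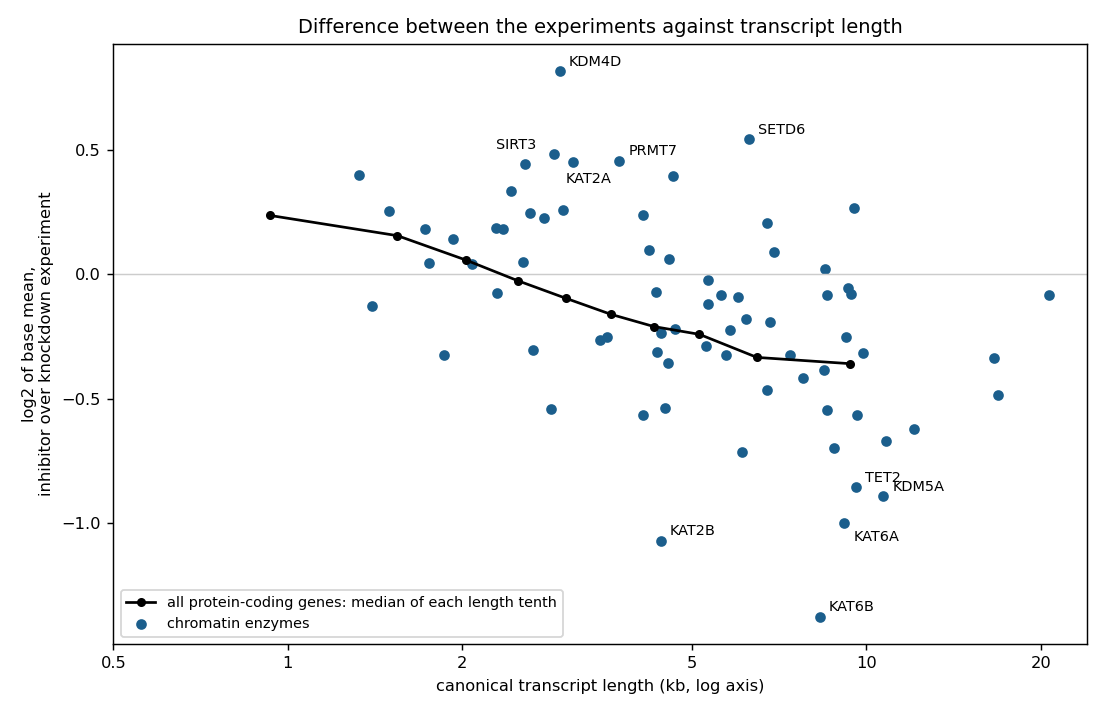
Log2 ratio of base means, inhibitor over knockdown experiment (vertical), against the length of the canonical transcript (horizontal, kb, log axis) for 73 chromatin enzymes (blue points) and the median of all protein-coding genes in each of 10 length bins (black line, placed at the median length of the bin). The line runs from 0.24 to -0.36, and KDM4D at 0.82 and KAT6B at -1.37 lie farthest from it.

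The 5 enzymes with the highest log2 ratio were KDM4D at 0.82, SETD6 at 0.54, SIRT3 at 0.48, PRMT7 at 0.46 and KAT2A at 0.45. Against the median of genes in the same length bin these became 0.91, 0.88, 0.58, 0.62 and 0.55. In base mean, KDM4D went from 105 in the knockdown experiment to 187 in the inhibitor experiment, SETD6 from 1310 to 1935 and KAT2A from 4348 to 6030. The first is a gene with few reads, and SETD6 and SIRT3 are those with the abundant opposite-strand neighbours named above. The base mean of CNOT1, beside SETD6, was 15385 in the knockdown experiment and 9377 in the inhibitor experiment. That of RIC8A, beside SIRT3, was 4735 and 4708. The part of these neighbours in the ratios was not tested.

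The 5 lowest were KAT6B at -1.37, KAT2B at -1.07, KAT6A at -1.0004, KDM5A at -0.89 and TET2 at -0.86. Against the median of their length bin they became -1.02, -0.86, -0.64, -0.53 and -0.50. Acetyltransferases made up 3 of the 5, beside 10 of the 73 enzymes with a ratio. Of these 10 acetyltransferases, 4 had a log2 ratio above 0. The 5 highest and the 5 lowest thus include both members of the KAT2 pair on opposite sides. The base mean of KAT2B was 421 in the knockdown experiment and 203 in the inhibitor experiment, that of KAT6B was 274 and 107 and that of KAT6A was 3397 and 1721. Within their length bins, 1.83% of genes had a log2 ratio as low as KAT6B or lower. For KAT2B this was 3.57% and for KAT6A 6.97%. These genes were picked as the lowest of 73, so that low percentages follow from the choice.

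By role, the median log2 ratio ran from -0.62 for the 3 TET enzymes, of which 0 were above 0, to 0.18 for arginine methyltransferases, of which 5 of 7 were above 0. For acetyltransferases it was -0.46 over 10 genes, with 4 above 0, and for lysine demethylases -0.24 over 16 genes, with 3 above 0. Deacetylases had a median of 0.07 over 8 genes. Of all protein-coding genes with a ratio, 41.7% were above 0, or 18.4% of those with transcripts over 8 kb. After subtraction of the median of each length bin, the roles lay between -0.26 for the TET enzymes and 0.25 for the other SETD proteins. Acetyltransferases then stood at -0.20, lysine demethylases at 0.06, deacetylases at 0.10 and arginine methyltransferases at 0.21. The median of lysine demethylases thus changed sign.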

How the data were processed

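Total RNA of NB4 cells was sequenced as mRNA in 10 libraries, 2 for each of EV, shA1, shB2, DMSO and MC2580. Per the labels and methods, the authors used bcl2fastq 2 and FastQC 0.11.5, mapped reads to hg38 with STAR 2.7, estimated counts with RSEM and fitted DESeq2. The annotation release is not given in the sources used here. Base means, the signal deposited by the authors, are averages over an experiment's libraries of size-factor-scaled counts. The other deposited columns hold the authors' own comparisons (fold changes, standard errors, Wald statistics and p-values) and were not used. Depth per library is unknown.

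Levels were computed with Python 3.11.15 and pandas 2.3.3. Lengths came from the canonical transcripts of GENCODE release 44 on GRCh38, the build of the files. It matched 60306 of 60603 rows and gave a length for 19905 of 19975 protein-coding rows. Ratios between experiments need base means no lower than 50 in each, and 10 bins of length and of GC were formed over those genes. The subtraction of length bin medians was tested on simulated data. Promoters came from RefSeq, taking the start site nearest the canonical one. Protein identity between relatives was planned and not computed, since protein sequences were not used here.

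The members and lists were chosen with earlier results of these data known. Named genes are the 10 highest levels, the highest and lowest of each group of relatives, base means under 10, the 5 highest and 5 lowest ratios, and all genes of roles with at most 10. Genes with opposite-strand neighbours, the printed promoters and the other demethylases were chosen after their values were seen.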

Additional observations from a re-analysis of the deposited data

How the results depend on the processing

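Leaving out replicates was not possible, as no value per library was available, and no paired analysis was possible because the results come from no test. Counts of expressed enzymes at base means of 10, 100 or above 0 or at a level of 1 stayed within 1.5 times those given. Counts of 74 and 73 among 78 could not have risen by more. At a base mean above 0, the shares were 100% and 98.7% of the enzymes, beside 86.8% and 85.6% of protein-coding rows. The median level with the other lengths also stayed within 1.5 times the value given. Shares of the summed level in the knockdown experiment moved by more than that in 8 cases. With the exon union as length, the KMT2 and SETD1 families held 10.0% and TET enzymes 1.78%. With the median of protein-coding transcripts, the KMT2 and SETD1 families held 11.5% and DNA methyltransferases 9.94%. Without division by length, the KMT2 and SETD1 families held 15.9%, sirtuins 1.69%, arginine methyltransferases 10.5% and TET enzymes 2.47%. In the inhibitor experiment TET enzymes held 0.587%.

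Of 76 alternative log2 ratios in 19 groups of relatives, 9 reversed and 26 moved by over 1.5 times. With the exon union the reversed values were -0.15 for SETD1A over SETD1B, -0.41 for KDM2B over KDM2A and -1.63 for KDM6A over KDM6B. With the median of transcripts they were -2.97 for EP300 over CREBBP and -1.46 for KDM5C over KDM5A, with the coding length -0.24 for SETD1A over SETD1B and -0.21 for KDM2B over KDM2A, and in the inhibitor experiment -0.16 for KMT5B over KMT5C and -0.50 for KDM6A over KDM6B. The order of these 6 pairs is thus not settled by these data, and the cause was not tested. Ranks of level with the other lengths correlated with those given at a Spearman's rho of 0.86 to 0.93, and 4 to 8 of the 10 highest were shared.

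The median log2 ratio between the experiments turned from -0.12 to 0.077 when the median of each gene's bin of transcript length was subtracted, with 41 of 73 above 0, an alternative chosen after seeing the data, as were the bins of GC and the shares in the inhibitor experiment. It kept its sign with base means as deposited, with the median of all genes set to 0, with base means of at least 10 or 200 and with bins of GC. Base means under 10 give no usable level, and no error can be given for any value, because depth and spread per library are unknown.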

Other observations

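Chromatin enzymes that the naming rule does not reach had levels in the same range. Of a list of 27 such genes, 23 had a base mean no lower than 50 in each experiment. Over all protein-coding rows the share was 55.9% in the knockdown experiment and 55.4% in the inhibitor experiment. The median levels of the list were 21.3 and 16.0. The highest levels belonged to HAT1, which acetylates newly made histone H4, with 155 and 139.9, and to NSD2, an H3K36 dimethyltransferase, with 130 and 114. UHRF1, which guides DNMT1 to replicated DNA, had levels of 64.8 and 62.8, against 597 and 446 for DNMT1. EHMT2, the G9a enzyme of H3K9, had 63.2 and 67.9. The lowest were PRDM9, the meiotic H3K4 methyltransferase, SMYD1, an enzyme of muscle, DNMT3L, the inactive relative of DNMT3A, and HR, with base means of 0.0758, 1.45, 0.980 and 42.6 in the knockdown experiment.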
